A study of Mus musculus with 51 samples.

Results

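Mouse cells that carried guide RNAs for Pparg and Ybx1 together (called PY here, as in the labels) were followed over the first 2 days of fat cell formation. The fit used all 51 libraries of the series, and the comparison was between 11 of them. These were the 6 PY libraries of day 0 and the 5 PY libraries of day 2, taken from the labels by transfection and day, and all genes were compared. Ratios within an experiment came from 5 pairs of libraries with the same number (experiments 1, 2, 3, 5 and 6). Experiment 4 had a PY library at day 0 and none at day 2. Fitted folds and p-values did not come from these pairs alone. Experiment was a term of the fit, and the day 0 library of experiment 4 entered it too.

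The cells were C3H/10T1/2-SAM, a mouse mesenchymal line that holds dCas9-VP64 and MS2-P65-HSF1, the 2 protein parts of a system that switches on endogenous genes at which a guide RNA points. Every library came from this one line, so the data hold 1 genetic background grown in culture. PY cells received plasmids with a Pparg guide and a Ybx1 guide, P cells (11 libraries used below) a plasmid with the Pparg guide alone, and EV cells (11 libraries) an empty plasmid, each at 250 ng of DNA in total. How this was split between the plasmids of PY cells is not given in the labels. Transfection preceded day 0 by 48 hours. On day 0 all cells, controls included, were given 5 µM rosiglitazone, a ligand that activates the PPARG protein. The labels do not say whether the day 0 RNA was taken before the drug. Day of differentiation, exposure to the drug and time since transfection therefore cannot be told apart in a comparison of day 2 with day 0.

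PPARG is the nuclear receptor that drives the fat cell programme; with its partner RXR it switches on genes of fat uptake, storage and release, and it works together with the C/EBP factors. YBX1 is a Y-box protein that binds DNA and RNA and takes part in transcription, splicing and mRNA stability. Mesenchymal cells that turn into fat cells first rearrange signalling and cell cycle genes and then gain lipid droplets, lipid enzymes, mitochondria and secreted adipokines. Foreign DNA in the cytosol is sensed by cells and can start an interferon and NF-kB response.

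PY libraries held 3381870 to 62202521 counts in genes, and the shallowest were those of experiment 3, with 4117244 at day 0 and 3381870 at day 2. In a principal component analysis of the 11 libraries, day accounted for 88.9% of the first component and experiment for 88.9% of the second. On that second component the libraries of experiment 3 stood apart, at -87.0 and -78.2 against -16.2 to 62.5 for the others, so counts that moved without experiment 3 are given beside the result. Levels below are CPM, the counts scaled to the same library size. A gene was called when the adjusted p of edgeR's quasi-likelihood test was under 0.05 over the 17015 genes tested. "Rose" and "fell" are used of called genes.

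The targeted genes were high on both days and did not pass the test between them. Pparg (chr6:115360951-115490399 on GRCm38, plus strand) had a lowest, median and highest level of 144, 281 and 375 CPM at day 0, and 104, 274, 235, 486 and 389.9 CPM at day 2. The day 2 range enclosed the day 0 range, and 4 of 5 experiments went up while experiment 1 went down. The fold was 1.13 (95% interval 0.796 to 1.6, adjusted p = 0.643). EV cells had 45.9 to 64.5 CPM of Pparg at day 0 and 41.7 to 70.1 CPM at day 2, below every PY library.

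Ybx1 (chr4:119277981-119294604 on GRCm38) had a lowest, median and highest level of 1446, 2249 and 2855 CPM at day 0, and 1490.1, 1964, 2253, 2229 and 2515 CPM at day 2. The groups overlapped throughout, with a fold of 1.01 (95% interval 0.832 to 1.22, adjusted p = 0.976). In EV cells Ybx1 lay between 558 and 886 CPM at day 0 and between 537 and 740 CPM at day 2, again below every PY library. Processed copies of Ybx1 exist in the mouse genome, and how reads shared with them were counted is not given in the sources used here.

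Among the Y-box proteins and their partners, 2 of 10 tested members rose and 3 fell, beside 17.3% and 18.3% of all tested genes. With so few members these counts are not read as a change of the list. Jmjd1c, a histone demethylase of the JmjC family, had a lowest, median and highest level of 341, 452 and 751 CPM at day 0, and 176, 253, 274, 247 and 212 CPM at day 2. All 5 day 2 libraries lay below all 6 of day 0, as they did for 4.58% of all tested genes. Jmjd1c fell 2.17-fold (95% interval 1.77 to 2.65, adjusted p = 2.91e-07). Igf2bp2, an RNA-binding protein, fell 1.57-fold (adjusted p = 8.39e-07) from between 98.1 and 158 CPM to between 80.8 and 121 CPM. Ybx2, the germ cell Y-box protein, had no count in any day 0 library and 0.0994, 0.1904, 0, 0.887 and 1.42 CPM at day 2 (adjusted p = 1.93e-05), levels near the limit of detection in most libraries.

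**Figure D1:**
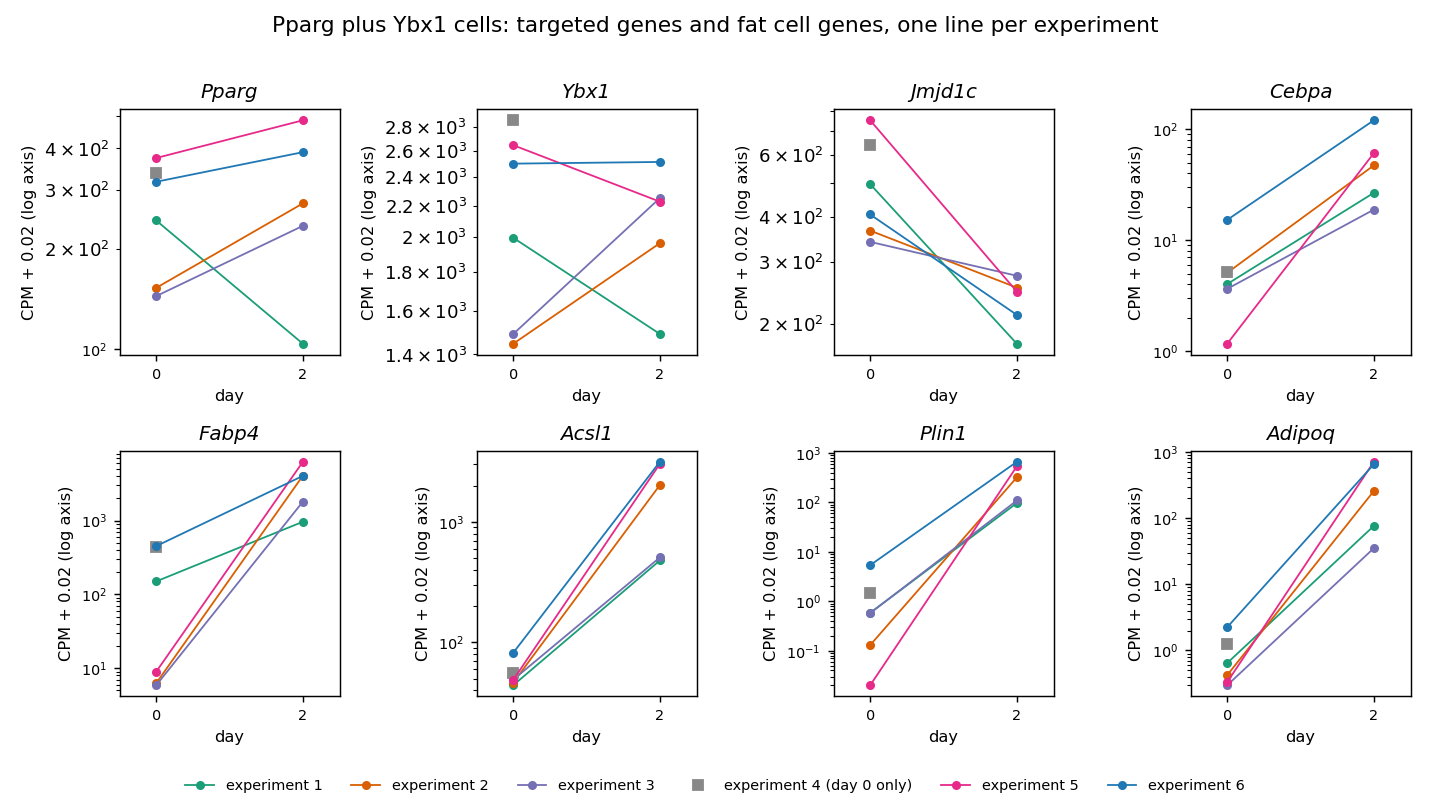
Levels of the 2 targeted genes, Jmjd1c and 5 fat cell genes in PY cells at day 0 and day 2, as CPM plus 0.02 on log axes that differ between panels, with 1 line per paired experiment and a square for experiment 4, which had day 0 only. Jmjd1c fell and Cebpa, Fabp4, Acsl1, Plin1 and Adipoq rose in all 5 experiments, while Pparg and Ybx1 moved in both directions.

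From day 0 to day 2, 6050 genes were called (35.6% of those tested), of which 2939 rose (17.3% of those tested) and 3111 fell (18.3%). Of the called genes, 3852 (63.7%) had the same direction in all 5 experiments. Over all tested genes, 2292 were higher in all 5 (13.5%) and 2561 lower in all 5 (15.1%), together 28.5%. The groups did not overlap for 788 genes that were higher (4.63%) and 779 that were lower (4.58%). Over 4-fold, 326 called genes rose and 188 fell. Without the replicate block on experiment, the count was 3875, 1943 higher and 1932 lower, and 3873 of these were among the 6050. In a fit of the 11 PY libraries alone the count was 3740. Because the background is this high, the counts of each gene list below are read against 17.3% called higher and 18.3% called lower. Lists and members were chosen with earlier results of these data known, so this reading is a description and no test.

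**Figure D2:**
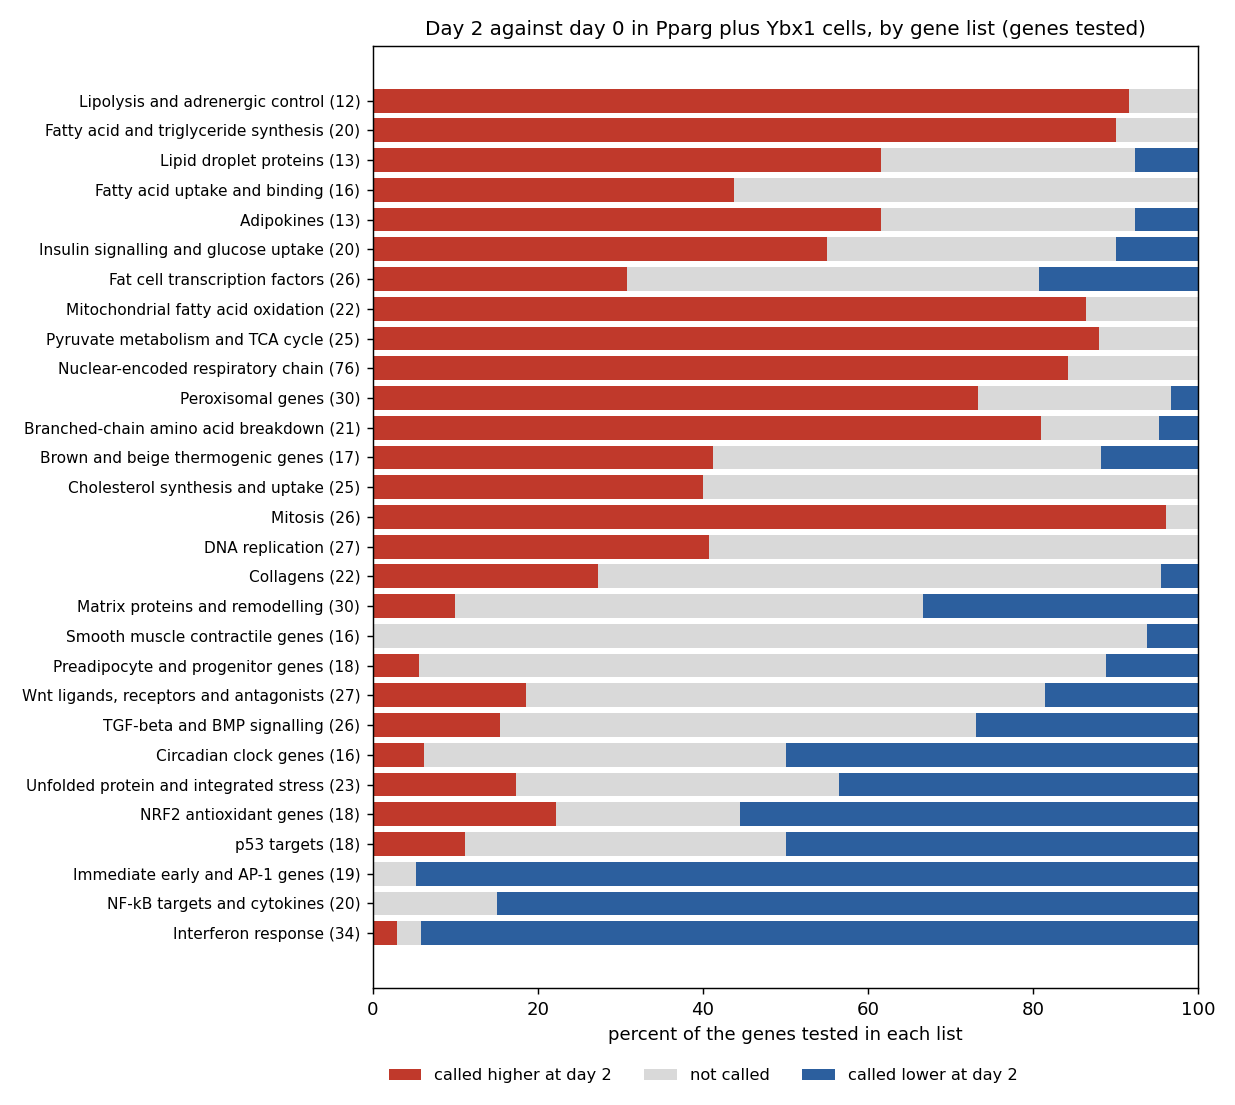
Percent of the tested genes of each list that were called higher (red), called lower (blue) or not called (grey) at day 2 against day 0 in PY cells, with the number tested in parentheses. Lipolysis, triglyceride synthesis, fatty acid oxidation, TCA cycle, respiratory chain and mitosis lists were mostly red, and interferon, NF-kB and immediate early lists were mostly blue.

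The fat cell transcription factors split: 8 of 26 tested rose and 5 fell, with a median log2 change of -0.02 against -0.000108 over all genes. Cebpa, the C/EBP factor of the mature fat cell, had a lowest, median and highest level of 1.14, 4.53 and 15.2 CPM at day 0, and 26.7, 47.2, 18.9, 60.98 and 121 CPM at day 2. The groups did not overlap, and the rise was 7.87-fold (95% interval 4.2 to 14.8, adjusted p = 3.48e-06). Nr1h3, the oxysterol receptor LXR alpha, rose 5.49-fold (adjusted p = 1.04e-05), from between 1.39 and 3.19 CPM to between 3.95 and 28.1 CPM. Stat5a, a signal transducer that acts early in fat cell formation, rose 1.96-fold (adjusted p = 4.25e-06) to a narrow range of 90.7 to 102 CPM.

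Ppara, the receptor of fatty acid oxidation genes, was at or below 0.104 CPM in every day 0 library and at 0.398 to 4.79 CPM at day 2 (adjusted p = 3.58e-05). Its highest level was in experiment 5, and the 21.2-fold rise was 13.4-fold without that experiment. The early C/EBP factors did not pass the test: Cebpb was at 24.7 to 44.8 and then 17.6 to 40.7 CPM (adjusted p = 0.136), and Cebpd at 19.8 to 62.8 and then 16.3 to 44.97 CPM (adjusted p = 0.153).

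Among regulators of early steps, several fell. Klf4, a zinc finger factor that acts early in adipogenesis, fell 1.65-fold (adjusted p = 0.000156). Gata2, which restrains fat cell formation, fell 1.68-fold (adjusted p = 0.000165) from between 37.3 and 48.98 CPM to between 17.6 and 33.8 CPM, with no overlap. Egr2, an immediate early factor, fell 3.73-fold (adjusted p = 0.00091) in 4 of 5 experiments, and in experiment 3 it was 8.07 and then 8.33 CPM. Without the replicate block, 3 in place of 5 members of this list fell.

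Genes that bring fatty acids into the cell rose in part: 7 of 16 tested members of the uptake and binding list rose and none fell. Acsl1, which activates fatty acids by joining them to coenzyme A, had a lowest, median and highest level of 44.03, 48.9 and 81.9 CPM at day 0, and 479, 2023, 507, 3034 and 3156 CPM at day 2. Day 0 levels were tight apart from experiment 6, and every day 2 library was several times above them. The rise was 27.2-fold (95% interval 13.4 to 55.3, adjusted p = 9.55e-09).

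Lpl, the lipase that frees fatty acids from lipoproteins, went from between 2.03 and 20.6 CPM to between 145 and 1204 CPM, a 51.5-fold rise (95% interval 19.4 to 137, adjusted p = 1.2e-07) that was 30.5-fold without experiment 5. Cd36, a fatty acid carrier at the cell surface, went from between 0.156 and 12.4 CPM to between 172 and 1258 CPM (adjusted p = 4.55e-07). Its fitted rise of 113-fold was 60.3-fold without experiment 5, 185-fold without experiment 6 and 256-fold in a fit of the PY libraries alone, and its day 0 level differed widely between experiments. Angptl4, an inhibitor of that lipase and a known PPAR target, was at 26.2 to 1437 CPM at day 0 and 505 to 904 CPM at day 2, and its day 2 range lay inside its day 0 range (adjusted p = 0.609).

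Day 0 itself differed widely between experiments for Fabp4, the fat cell fatty acid binding protein. Its 6 day 0 libraries held 149.8, 6.24, 5.84, 438, 8.94 and 450.5 CPM in experiments 1 to 6, and its 5 day 2 libraries 963, 4048, 1801, 6248 and 4029 CPM. Experiments 1, 4 and 6 were many times above the other three at day 0, while all 5 day 2 libraries lay above all of day 0. The rise within an experiment was 6.42, 641, 304, 693 and 8.94-fold in experiments 1, 2, 3, 5 and 6. The fitted rise was 24.2-fold (95% interval 6.88 to 84.8, adjusted p = 0.000141), 13.8-fold without experiment 5, 44-fold without experiment 6 and 112-fold in a fit of the PY libraries alone. Angptl4 was also highest at day 0 in these experiments, with 329, 862 and 1437 CPM in experiments 1, 4 and 6 and 26.2 to 81.5 CPM in the others. Cd36 was at 2.74, 7.78 and 12.4 CPM in them and at 0.156 to 0.557 CPM in the others.

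Triglyceride synthesis rose almost as a whole: 18 of 20 tested members rose and none fell, with a median fold of 2.5. Gpd1, which makes the glycerol backbone from glycolysis, had a lowest, median and highest level of 1.28, 2.07 and 10.6 CPM at day 0, and 87.1, 434, 87.2, 594 and 963 CPM at day 2. No libraries overlapped, and the rise was 75.1-fold (95% interval 28.3 to 199, adjusted p = 2.45e-08; 113-fold without the replicate block and 123-fold in a fit of the PY libraries alone). Agpat2, which adds the second acyl chain, rose 9.92-fold (adjusted p = 5.99e-07), from between 22.3 and 95.1 CPM to between 205 and 743 CPM. Dgat1, which completes the triglyceride, rose 4.07-fold (adjusted p = 4.72e-06), from between 16.98 and 32.4 CPM to between 35.9 and 205 CPM.

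Lipid droplet proteins followed, with 8 of 13 tested members risen and 1 fallen. Plin1, the perilipin that guards the droplet of fat cells, had a lowest, median and highest level of 0, 0.561 and 5.37 CPM at day 0, and 97.4, 322, 109.6, 538 and 665 CPM at day 2. Every day 2 library was above every day 0 library, and the 194-fold rise (95% interval 64.6 to 585, adjusted p = 5.73e-09) was 294-fold without experiment 6, whose day 0 library was the highest, and 359-fold in a fit of the PY libraries alone. Cidec, which fuses small droplets into large ones, went from between 0 and 12.8 CPM to between 72.3 and 957 CPM (adjusted p = 1.4e-06), a fitted 73.1-fold rise that was 48.4-fold without experiment 5, 118-fold without experiment 4 and 203-fold in a fit of the PY libraries alone.

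G0s2, an inhibitor of the triglyceride lipase ATGL, rose 12.4-fold (adjusted p = 2.85e-06; 19.1-fold in the PY libraries alone). Plin4, another perilipin, rose 3.09-fold (adjusted p = 0.000276) from an already high 172 to 567 CPM. Hilpda, a hypoxia-induced ATGL inhibitor, was the member that fell, 1.74-fold (adjusted p = 0.000141), from between 8.91 and 12.6 CPM to between 3.81 and 7.72 CPM.

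The machinery of fat release rose beside that of storage: 11 of 12 tested members of the lipolysis and adrenergic list rose and none fell, with a median fold of 6.14. Lipe, hormone-sensitive lipase, had a lowest, median and highest level of 6.396, 9.49 and 31.8 CPM at day 0, and 124, 325, 124, 495 and 679.9 CPM at day 2. The lowest day 2 library was far above the highest day 0 library, and the rise was 22.1-fold (95% interval 11.2 to 43.8, adjusted p = 1.68e-08). Adrb3, the fat cell beta adrenergic receptor, had 4 reads in all day 0 libraries together and 0.431, 1.65, 0, 13.8 and 21.9 CPM at day 2 (adjusted p = 3.97e-08). The shallow day 2 library of experiment 3 held none and experiments 5 and 6 held the most. Hcar1, the lactate receptor that restrains lipolysis, was at or under 0.242 CPM at day 0 and at 2.19 to 14.1 CPM at day 2 (adjusted p = 5.16e-08).

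Of 13 tested adipokines 8 rose and 1 fell (2 fell without experiment 3). Adipoq, adiponectin, had a lowest, median and highest level of 0.278, 0.514 and 2.22 CPM at day 0, and 76.2, 256, 35.1, 709 and 650.3 CPM at day 2. The groups were separate in every library, with a 252-fold rise (95% interval 76.3 to 832, adjusted p = 1.06e-08) that was 166-fold without experiment 5 and 385-fold without the replicate block. Cfd, adipsin, went from at most 0.26 CPM to 0.877 to 24.9 CPM (adjusted p = 1.21e-07). Fgf21, a metabolic hormone, was the member that fell, 2.7-fold (adjusted p = 0.0424), but that call was lost without experiment 1, 4, 5 or 6.

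In the insulin and glucose list 11 of 20 tested members rose and 2 fell (1 fell without the replicate block). Slc2a4, the insulin-responsive glucose carrier GLUT4, had 10 reads over all day 0 libraries and 0.762, 2.09, 0.877, 15.1 and 15.05 CPM at day 2 (adjusted p = 9.91e-09). Slc2a1, the basal carrier GLUT1, fell 1.92-fold (adjusted p = 0.00107), from between 56.01 and 136 CPM to between 30.5 and 59.8 CPM. Pck1, which feeds glycerol synthesis in fat cells, went from at most 0.133 CPM to 3.95 to 35.9 CPM (adjusted p = 9.91e-09). Igf1, a growth factor, rose 6.14-fold (95% interval 3.77 to 10, adjusted p = 4.85e-07), and its day 2 level was highest in experiments 1 and 2, whereas most genes above were highest in experiments 5 and 6.

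The protein-coding genes with the largest fitted rises, among those with at least 5 CPM at day 2 and the same direction in all 5 experiments, were Sptlc3, Slc36a2, Car3, Lgals12, Adipoq, Pck1, Plin1, Ffar2, Adig and Aldh1a7. Most began with too few reads at day 0 for a stable fold: over all 6 day 0 libraries Sptlc3 had 2 reads, Ffar2 3, Slc36a2 4, Adig 7, and Car3 and Lgals12 17 each. Car3, a carbonic anhydrase abundant in fat, reached 33.03, 16.3, 4.38, 117 and 40.2 CPM (adjusted p = 4.21e-10). Lgals12, a galectin of the fat cell lipid droplet, reached 7.89, 44.2, 9.21, 119.9 and 98.9 CPM (adjusted p = 3.79e-10).

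Sptlc3, a subunit of the enzyme that starts sphingolipid synthesis, reached 1.75 to 22.2 CPM (adjusted p = 3.91e-09). Ffar2, a receptor for short-chain fatty acids, reached 0.877 to 13.3 CPM (adjusted p = 3.59e-09), and Adig, adipogenin, 1.32 to 23.6 CPM (adjusted p = 7.59e-09). Aldh1a7, an aldehyde dehydrogenase with a close relative whose reads it may share, rose from between 0.26 and 1.11 CPM to between 19.3 and 227 CPM (adjusted p = 2.06e-09). At day 2, experiments 2, 5 and 6 held the higher levels of these 10 genes and experiments 1 and 3 the lower, except that Car3 was higher in experiment 1 than in experiment 2.

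The median log2 ratio of the mature fat cell marker list, in which 7 of 7 tested members rose, was 3.77 in experiment 1, 9.06 in experiment 2, 6.63 in experiment 3, 9.44 in experiment 5 and 6.22 in experiment 6. The summed level of these markers was 17.2 to 518 CPM at day 0 and 1420 to 8770 CPM at day 2. The PPAR-RXR direct repeat (AGGTCA, 1 base of any kind, AGGTCA), searched on both strands of the 300 bases around the RefSeq start, was in 0 of 204 matched promoters of genes that rose over 4-fold and in 6 of all 11241 (0.0534%), which says nothing of sites elsewhere. In RNA from whole cultures, more cells of a kind and more RNA per cell cannot be told apart.

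**Figure D3:**
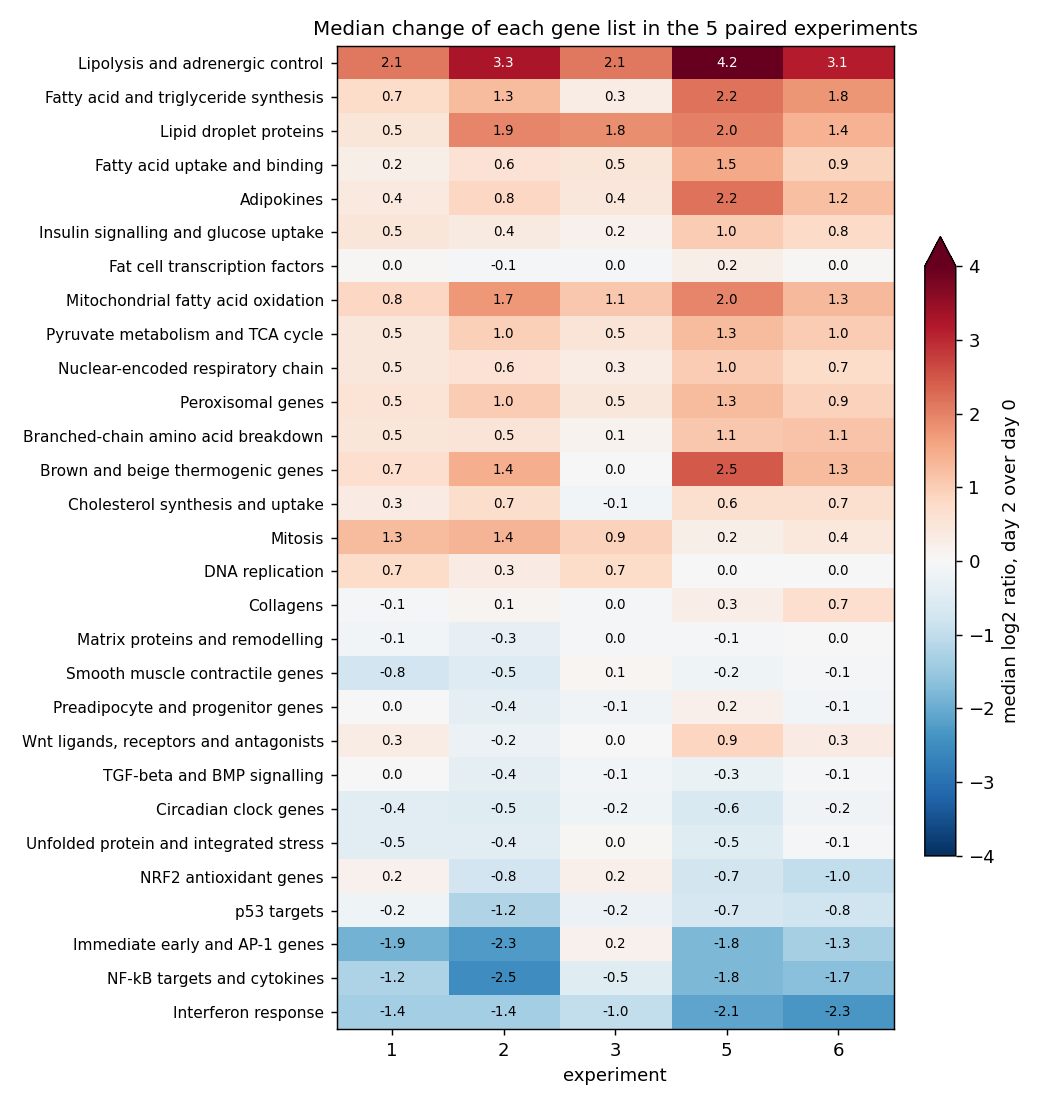
Median log2 ratio of day 2 over day 0 for the tested genes of each list (one line per list) in each of the 5 paired experiments (columns), red for higher and blue for lower at day 2. The lipolysis, fatty acid oxidation, TCA cycle and respiratory chain medians were above 0 in all 5 experiments, the mitosis median was highest in experiments 1 and 2, and the immediate early median was below 0 in all but experiment 3 (0.16).

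The title of the series names thermogenic commitment, and the brown and beige list gave a mixed answer at day 2. Of its 25 members 17 were tested, 7 rose and 2 fell (1 fell without the replicate block). Ucp1, the uncoupling protein that defines heat-producing fat, was too low to be tested. Kcnk3, a potassium channel of brown fat, went from at most 0.0967 CPM to 0.438 to 17.3 CPM (adjusted p = 6.56e-09). Slc36a2, an amino acid carrier of brown fat, went from at most 0.0445 CPM to 2.55, 10.8, 1.32, 30.3 and 42.2 CPM (adjusted p = 4.01e-09). Ppargc1b, a coactivator of mitochondrial genes, rose 10.9-fold (95% interval 5.5 to 21.7, adjusted p = 1.32e-06), from between 0.468 and 4.17 CPM to between 4.17 and 24.2 CPM.

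Prdm16, a regulator of brown fat identity, rose 6.4-fold (adjusted p = 0.00105; 4.16-fold without experiment 6) and stood at 0 to 1.38 CPM, higher in 4 of 5 experiments. Ppargc1a, the cold-induced coactivator, had 0.744, 4.66, 6.96, 0.667, 0.364 and 0 CPM in the day 0 libraries of experiments 1 to 6 and 1.23, 12.9, 7.45, 0.426 and 0.215 CPM at day 2. Experiments 2 and 3 were high on both days. The level was higher at day 2 in all 5 paired experiments, but the test was not passed (adjusted p = 0.229). Cidea, a droplet protein of brown fat, stayed under 1 CPM in every library (adjusted p = 0.213).

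Mitochondrial genes rose broadly and by modest folds. In fatty acid oxidation 19 of 22 tested members rose and none fell (median fold 2.23), in pyruvate metabolism and the TCA cycle 22 of 25 (1.74), and in the nuclear-encoded respiratory chain 64 of 76 (1.57). Acadm, which starts oxidation of medium-chain fatty acids, had a lowest, median and highest level of 27.4, 39.7 and 62.1 CPM at day 0, and 114, 234, 114, 482 and 312 CPM at day 2. The groups were separate, and the rise was 5.32-fold (95% interval 3.46 to 8.18, adjusted p = 2.31e-07).

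Hadh, a later dehydrogenase of that pathway, rose 3.47-fold (adjusted p = 9.12e-08). Pcx, pyruvate carboxylase, rose 7.76-fold (adjusted p = 1.12e-06) to 323 to 1613 CPM, and Mdh1, cytosolic malate dehydrogenase, rose 2.98-fold (adjusted p = 1.21e-06). Uqcrh, a subunit of complex III, rose 2.06-fold (adjusted p = 2.58e-06) from between 82.2 and 114 CPM to between 165 and 366 CPM, and Sdhc, of complex II, rose 1.74-fold (adjusted p = 2.35e-06). The medians of these lists were lowest in experiments 1 and 3 and highest in experiment 5.

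Of 13 messenger RNAs made from the mitochondrial genome 7 were tested and 5 rose. Levels varied widely at day 2: mt-Cytb, of complex III, rose 2.42-fold (adjusted p = 0.012) and mt-Co1, of complex IV, 1.61-fold (adjusted p = 0.0299), and both calls were lost when experiment 2, 5 or 6 was left out. Without the replicate block 2 of the 7 rose. Of the 13, 5 had no count in any PY library (mt-Nd3, mt-Nd4l, mt-Co3, mt-Atp6 and mt-Atp8). The cause was not tested, and a missing count here does not show that a gene was silent.

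Peroxisomal genes rose in 22 of 30 tested members and fell in 1. Acaa1b, a peroxisomal thiolase with a near-identical relative, had a lowest, median and highest level of 3.28, 3.58 and 5.61 CPM at day 0, and 19.2, 59.99, 21.04, 173 and 101 CPM at day 2. It rose 14.6-fold with separate groups (95% interval 7.45 to 28.4, adjusted p = 1.33e-07), and how reads shared with its relative were counted is not given in the sources used here. Scp2, a lipid carrier and thiolase of peroxisomes, rose 4.52-fold (adjusted p = 8.09e-07).

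Breakdown of branched-chain amino acids rose in 17 of 21 tested members and fell in 1. Aldh6a1, which acts late in valine breakdown, rose 4.44-fold (adjusted p = 3.84e-07), from between 16.2 and 41.5 CPM to between 62.2 and 253 CPM. Bcat1, the cytosolic enzyme of the first step, fell 2.42-fold (adjusted p = 0.0031) in 4 of 5 experiments, and it was not called without the replicate block or without experiment 1. Cholesterol synthesis rose in 10 of 25 members, with Acat2 2.64-fold (adjusted p = 8.69e-05) and Dhcr7 2.81-fold (adjusted p = 0.000535) among them, and none fell.

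Among mitophagy and autophagy genes 9 of 25 rose and 3 fell. Bnip3, a receptor that marks mitochondria for removal, rose 3.13-fold (95% interval 2.2 to 4.44, adjusted p = 4.04e-06). Pink1, the kinase that labels damaged mitochondria, had a lowest, median and highest level of 18.9, 30.7 and 34.2 CPM at day 0, and 53.5, 32.3, 37.3, 56.9 and 66.6 CPM at day 2. The groups overlapped at their edges, all 5 experiments went up, and the rise was 1.59-fold (adjusted p = 0.00296). Sqstm1, the autophagy receptor p62, fell 2.33-fold (adjusted p = 2.41e-06), from between 981 and 2231 CPM to between 575 and 955 CPM. Without the replicate block or without experiment 3, 1 member of this list fell.

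Cell division genes rose at the same time: 25 of 26 tested mitosis genes rose and none fell, with a median fold of 1.81, and 11 of 27 replication genes rose. Without the replicate block these counts were 10 and 2, and without experiment 3 they were 23 and 11. The promoters of a pair of these genes are shown because the list shares elements that its choice did not use. Each is the stretch of 250 bases before the RefSeq start (build GRCm38.p6), 5′ to 3′ on the gene's strand, with TTTGAA (the CHR element of cell cycle genes) and CCAAT (the Y-box core, also read by NF-Y), or their complements TTCAAA and ATTGG, in capitals.
Top2a (chr11:99024190-99024439, minus strand): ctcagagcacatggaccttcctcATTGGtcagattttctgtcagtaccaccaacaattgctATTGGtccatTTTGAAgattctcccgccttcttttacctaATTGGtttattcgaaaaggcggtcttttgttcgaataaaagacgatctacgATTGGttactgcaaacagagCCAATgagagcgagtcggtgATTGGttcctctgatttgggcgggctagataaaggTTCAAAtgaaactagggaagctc
Ccnb2 (chr9:70421555-70421804, minus strand): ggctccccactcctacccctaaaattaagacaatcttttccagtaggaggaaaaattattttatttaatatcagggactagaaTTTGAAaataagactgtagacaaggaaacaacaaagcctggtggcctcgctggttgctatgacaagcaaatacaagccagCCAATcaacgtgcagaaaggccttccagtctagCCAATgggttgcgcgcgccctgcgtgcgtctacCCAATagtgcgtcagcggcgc

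Top2a, the topoisomerase that untangles chromosomes, held 2 CHR matches and 6 CCAAT matches in this window, and Ccnb2, cyclin B2, held 1 and 3. Over the 300 bases around the start (250 before and 50 after), CCAAT on either strand was in 19 of 22 mitosis promoters matched (86.4%) and TTTGAA in 17 of 22 (77.3%), against 38.8% and 12.2% of the 11241 promoters of tested genes. The matches describe letters and not bound sites, and in the 2 windows shown no CHR match overlapped a CCAAT match. CCAAT was in 43.8% of promoters of all genes that rose and 35.2% of those that fell.

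Mki67, the proliferation antigen, had a lowest, median and highest level of 77.7, 106 and 188 CPM at day 0, and 296, 347, 355, 117 and 166 CPM at day 2. It rose in all 5 experiments, 2.1-fold by the fit (95% interval 1.56 to 2.81, adjusted p = 0.000143), yet the groups overlapped: experiments 1, 2 and 3 reached 296 to 355 CPM, and experiment 5 stayed at 117 CPM. Top2a went from between 114 and 199 CPM to between 166 and 416 CPM (1.96-fold, adjusted p = 0.000184), and Ccnb2 from between 14.1 and 25.2 CPM to between 24.9 and 64.9 CPM (2.17-fold, adjusted p = 0.00014).

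Nusap1 and Cenpf, proteins of the spindle and the kinetochore, rose 2.15-fold and 2.28-fold (adjusted p = 1.07e-05 and 6.75e-05). Of the replication genes, Ccne1, cyclin E1, rose 1.63-fold (adjusted p = 0.00043) and Tyms, which makes thymidylate, 1.52-fold (adjusted p = 0.000655). By experiment, the median log2 ratio of the mitosis list was 1.27, 1.35 and 0.92 in experiments 1, 2 and 3 and 0.24 and 0.42 in experiments 5 and 6. Experiments 5 and 6 had the smaller mitosis changes and the higher values of the median change of triglyceride synthesis (2.16 and 1.78). Other lists were mixed. Experiment 2, with the largest mitosis change, exceeded experiment 6 for lipid droplet (1.94 against 1.39), lipolysis (3.28 against 3.14) and fatty acid oxidation genes (1.73 against 1.31). It lay below experiment 6 for fatty acid uptake (0.577 against 0.879) and adipokines (0.832 against 1.21). A link between these lists was not tested.

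The interferon response declined almost as a whole. Of 34 tested members 32 fell, 1 rose and 1 was not called, with a median 2.86-fold lower level at day 2, and the count was 32 without experiment 3. The promoters of 3 members are shown because they carry the core that interferon-induced genes share. Capitals mark this core (GAAA, 2 bases of any kind, GAAA), or its complement (TTTC, 2 bases, TTTC), in the 250 bases before the RefSeq start (GRCm38.p6).
Isg15 (chr4:156200819-156201068, minus strand): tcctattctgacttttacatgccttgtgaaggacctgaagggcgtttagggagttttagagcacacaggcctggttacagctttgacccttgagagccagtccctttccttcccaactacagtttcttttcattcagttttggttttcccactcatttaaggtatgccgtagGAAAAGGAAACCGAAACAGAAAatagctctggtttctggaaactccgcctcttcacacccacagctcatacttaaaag
Ifit3 (chr19:34583279-34583528, plus strand): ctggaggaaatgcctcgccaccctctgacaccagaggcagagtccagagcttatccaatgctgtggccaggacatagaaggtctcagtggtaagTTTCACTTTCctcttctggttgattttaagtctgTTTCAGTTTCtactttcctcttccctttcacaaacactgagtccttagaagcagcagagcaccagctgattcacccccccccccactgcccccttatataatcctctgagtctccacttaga
Cxcl10 (chr5:92348890-92349139, minus strand): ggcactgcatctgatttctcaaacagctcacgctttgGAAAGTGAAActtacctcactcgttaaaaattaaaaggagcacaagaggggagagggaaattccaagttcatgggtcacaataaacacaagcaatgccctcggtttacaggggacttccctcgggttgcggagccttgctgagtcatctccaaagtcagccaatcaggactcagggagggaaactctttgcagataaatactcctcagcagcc

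Isg15, a ubiquitin-like protein, held 3 overlapping matches, Ifit3, an antiviral protein, held 2, and Cxcl10, a chemokine, held 1. In the 300 bases around the start the core was in 14 of 24 matched promoters of the list (58.3%), against 3.13% of all 11241. The promoters of Ifit2 and Oasl1, whose falls are given below, were among those without it. A match here is a description and not a bound site, and a promoter without one lacks only these letters in this window.

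Isg15 had a lowest, median and highest level of 182, 355 and 676 CPM at day 0, and 161, 159.9, 156, 55.98 and 29.5 CPM at day 2. It fell 3.78-fold with separate groups (95% interval 2.53 to 5.65, adjusted p = 3.15e-06). Ifit3 fell 6.39-fold (adjusted p = 1.65e-07), from between 1221 and 4658 CPM to between 87.5 and 978 CPM. Its neighbour Ifit3b, a close copy that may share its reads, fell 6.96-fold (adjusted p = 4.7e-08).

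Ifit2, another member of that antiviral family, had a lowest, median and highest level of 332, 668 and 2237 CPM at day 0, and 62.95, 107, 124, 107 and 34.2 CPM at day 2. The fall was 12.2-fold (95% interval 6.94 to 21.3, adjusted p = 2.25e-08). Oasl1, an antiviral protein that restrains interferon production, fell 12.3-fold (adjusted p = 1.2e-07). Ifi27, which is tied to the mitochondrion and the nuclear envelope, was the member that rose, 2.4-fold (adjusted p = 0.000723), from between 22.8 and 86.4 CPM to between 63.6 and 177 CPM.

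The interferons themselves were among the largest falls. Ifnb1, interferon beta, had a lowest, median and highest level of 9.46, 51.1 and 78.7 CPM at day 0, and 1.09, 1.33, 2.19, 2.52 and 0.129 CPM at day 2. All experiments went down, 27.3-fold by the fit (95% interval 11.1 to 66.7, adjusted p = 5.3e-07), and the day 0 levels of experiments 3 and 6 were the lowest. Ifna4, an interferon alpha with close copies in its cluster, fell 30.1-fold (adjusted p = 1.74e-06), from between 0.278 and 15.9 CPM to between 0 and 0.497 CPM.

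The largest falls by the rule used for rises (at least 5 CPM at day 0) were Krt16, Ifit1bl1, Ccl4, Ifna4, Ifnb1, Ccl5, Cxcl10, Gm5431, Oasl1 and Ifit2. Krt16, a keratin of stressed epithelium, had a lowest, median and highest level of 1.39, 6.86 and 30.9 CPM at day 0, and 0.0663, 0.0635, 1.32, 0.142 and 0 CPM at day 2. Its fitted 69.5-fold fall (adjusted p = 2.61e-07) was 40.8-fold without experiment 2 and 104-fold without experiment 3, in which it was 1.39 and then 1.32 CPM. Ccl4, a chemokine, fell from between 1.67 and 11.2 CPM to between 0 and 0.355 CPM (adjusted p = 3.99e-08), with 12 reads in all at day 2, and the fitted 51.1-fold fall was 123-fold without experiment 5.

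Ccl5, a chemokine that draws T cells, fell 13.1-fold (adjusted p = 2.88e-07), and Cxcl10 fell 12.7-fold (adjusted p = 4.72e-07), from between 47.1 and 305 CPM to between 2.67 and 32.9 CPM. Gm5431, a predicted gene, fell 12.6-fold (adjusted p = 2.76e-07). Ifit1bl1, of the Ifit family, fell 52.9-fold (95% interval 20.8 to 135, adjusted p = 4.7e-08), from between 133 and 2294 CPM to between 6.92 and 34.2 CPM. For Ccl5 and Cxcl10 the day 2 library of experiment 3 was the highest, at 34.6 and 32.9 CPM.

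NF-kB targets and cytokines fell in 17 of 20 tested members, and none rose (median 3.26-fold lower). Il6, a cytokine, had a lowest, median and highest level of 9.57, 22.7 and 39.3 CPM at day 0, and 2.39, 3.11, 3.07, 4.51 and 1.93 CPM at day 2. The groups were separate, and it fell 7.14-fold (95% interval 4.59 to 11.1, adjusted p = 2.48e-08). Cxcl1, a neutrophil chemokine, fell 5.52-fold (adjusted p = 3.88e-09), from between 40.9 and 59.7 CPM to between 5.904 and 15.1 CPM. Nfkbia, the inhibitor that NF-kB itself induces, fell 2.47-fold (adjusted p = 3.26e-08).

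**Figure D4:**
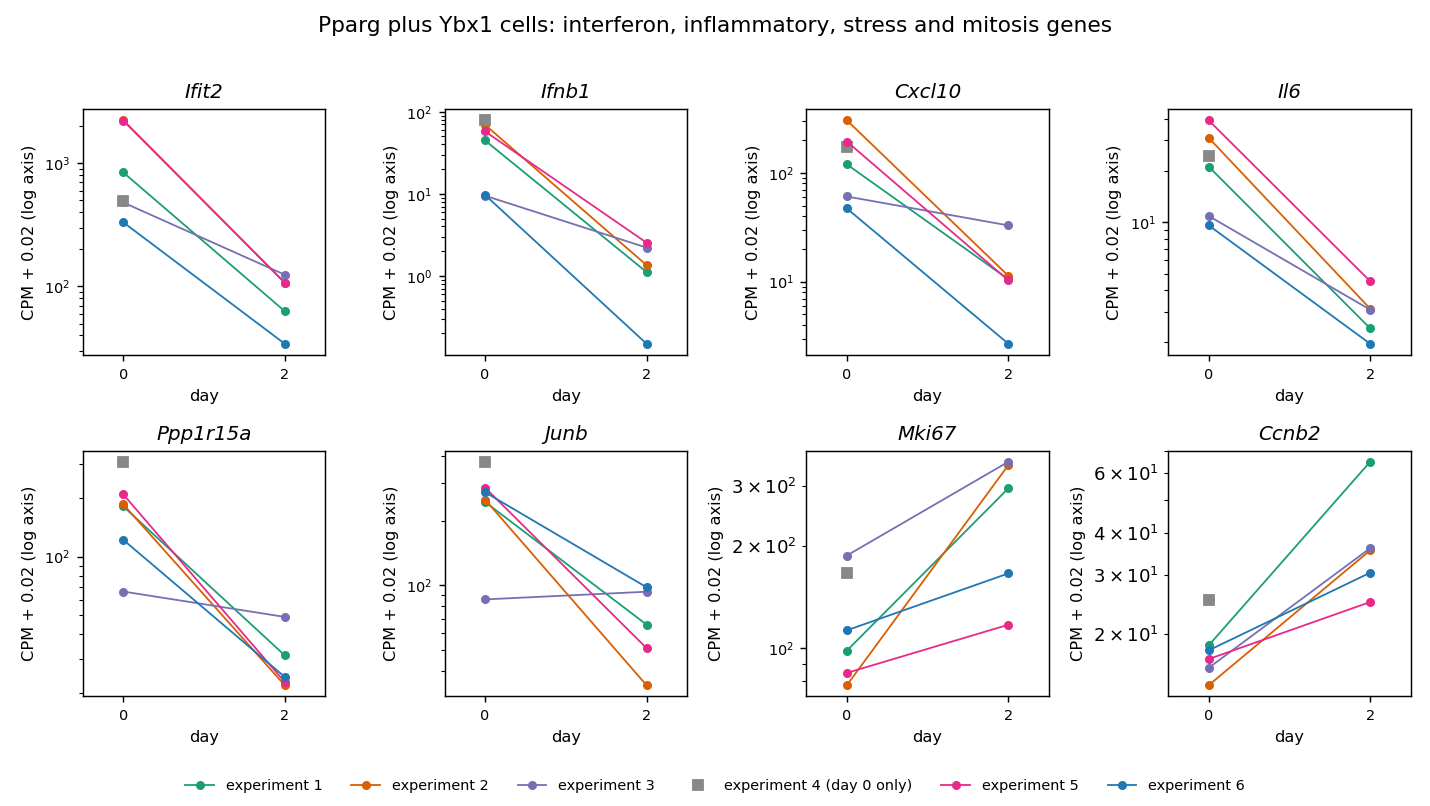
Levels of 4 interferon or cytokine genes (Ifit2, Ifnb1, Cxcl10, Il6), 1 stress gene (Ppp1r15a), 1 immediate early gene (Junb) and 2 mitosis genes (Mki67, Ccnb2) in PY cells, as CPM plus 0.02 on log axes, with 1 line per paired experiment. The first 5 genes fell in all 5 experiments, Junb fell in 4 and was about level in experiment 3, and Mki67 and Ccnb2 rose in all 5, least in experiment 5.

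Immediate early and AP-1 genes fell in 18 of 19 tested members (17 without experiment 3), with a median 2.91-fold lower level. Junb, an AP-1 subunit, had a lowest, median and highest level of 86, 261 and 375 CPM at day 0, and 65.7, 34.3, 93.4, 51.04 and 97.99 CPM at day 2. It fell 3.36-fold (95% interval 2.26 to 5, adjusted p = 1.06e-05) in 4 of 5 experiments, while experiment 3 had 86.0 and then 93.4 CPM. Fosb, another subunit, fell 4.77-fold (adjusted p = 1.27e-05) with the same exception. For the list as a whole the median log2 ratio was 0.16 in experiment 3 and -1.33 to -2.28 in the others, and the day 0 library of experiment 3 was the lowest of the 6 for Junb, Fosb and Egr2.

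Stress programmes fell in part. Of the unfolded protein and integrated stress list 10 of 23 tested members fell and 4 rose (2 rose without the replicate block). Ppp1r15a, the phosphatase subunit GADD34, had a lowest, median and highest level of 66.2, 183 and 306 CPM at day 0, and 31.2, 21.9, 49.1, 22.8 and 24.2 CPM at day 2, with no overlap and a 5.33-fold fall (95% interval 3.66 to 7.75, adjusted p = 2.27e-08). Trib3 and Atf3, both induced by that stress pathway, fell 4.26-fold and 6.36-fold (adjusted p = 3.86e-06 and 7.56e-06). Pdia4, a folding enzyme of the endoplasmic reticulum, rose 1.53-fold (adjusted p = 2.24e-05).

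Of 18 p53 targets 9 fell and 2 rose (1 rose without the replicate block). Mdm2, the ligase that p53 induces against itself, fell 2.14-fold (95% interval 1.79 to 2.56, adjusted p = 4.48e-08), from between 223 and 515 CPM to between 142 and 179 CPM, and Plk2, a stress kinase, fell 3.18-fold (adjusted p = 4.54e-06). Of 18 NRF2 genes 10 fell and 4 rose. Hmox1, heme oxygenase, had a lowest, median and highest level of 334, 842 and 1136 CPM at day 0, and 343, 153, 409, 117 and 101 CPM at day 2, and fell 3.54-fold (adjusted p = 3.61e-05) in 4 of 5 experiments. Slc7a11, the cystine carrier, fell 3.48-fold (adjusted p = 6.06e-05), and Cat, catalase, which also belongs to peroxisomes, rose 2.31-fold (adjusted p = 6.04e-05).

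Heat shock genes fell in 5 of 15 tested members and rose in 1, and without the replicate block both counts were 0. Clock genes fell in 8 of 16 and rose in 1 (none rose without the replicate block, and 3 without experiment 3). Ciart, a repressor of the clock, fell 3.85-fold (adjusted p = 6.3e-06), from between 2.78 and 10.2 CPM to between 0.438 and 3.31 CPM, and Nfil3, an output factor, fell 2.35-fold (adjusted p = 8.21e-07). Of 22 tested glycolysis and hypoxia genes 4 rose and 6 fell (3 fell without the replicate block), not far from the 17.3% and 18.3% of all genes. Pfkfb3, which sets glycolytic rate, rose 2.97-fold (adjusted p = 7.63e-05), and Hk2, hexokinase, fell 1.69-fold (adjusted p = 0.00617), a call lost without the block or without experiment 1. Pdk4, which shuts pyruvate out of the TCA cycle, was at 41.5 to 192 and then 73.7 to 253 CPM (adjusted p = 0.202).

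Matrix genes included both rises and falls. Col1a1, the main collagen, had a lowest, median and highest level of 1149, 2013 and 2649 CPM at day 0, and 1132, 1127, 1446, 1254 and 2590.4 CPM at day 2, with overlapping groups (adjusted p = 0.222). Of 22 collagens 6 rose and 1 fell (none fell without the replicate block or without experiment 3). Col15a1, a collagen of basement membranes, rose 16.4-fold (95% interval 7.71 to 34.9, adjusted p = 4.93e-07), from between 1.404 and 12.5 CPM to between 20.2 and 225 CPM. Col6a3, a collagen of fat tissue matrix, rose 5-fold (adjusted p = 1.2e-06), from between 48.2 and 183 CPM to between 260.0 and 1082 CPM.

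Other matrix proteins fell in 10 of 30 tested members and rose in 3 (3 and 1 without the replicate block; 7 and 3 without experiment 3). Timp1, an inhibitor of matrix proteases, fell 2.18-fold (adjusted p = 0.00234), and Thbs1, thrombospondin, 2.32-fold (adjusted p = 0.0103; not called without experiment 1 or 5 or without the block). Plod2, which modifies collagen lysines, rose 2.26-fold (adjusted p = 1.32e-07).

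Of 16 smooth muscle genes 1 fell, Tagln, 2.76-fold (adjusted p = 0.0331), a call lost without the block, without experiment 1, 5 or 6, and with DESeq2. Acta2, smooth muscle actin, had 2175, 1395, 745, 2273, 3848 and 3186 CPM in the day 0 libraries of experiments 1 to 6 and 619.7, 404, 780.3, 2817 and 2817 CPM at day 2 (adjusted p = 0.328). Experiments 5 and 6 kept a high level of Acta2 at day 2 and experiments 1, 2 and 3 had lower ones.

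Of 18 progenitor genes 1 rose and 2 fell. Pdgfra, a receptor of fat cell progenitors, rose 1.61-fold (adjusted p = 0.00899; not called without the replicate block), from between 31.98 and 166 CPM to between 87.5 and 228 CPM with wide overlap. Ly6a, the stem cell antigen Sca-1 and also an interferon-induced gene, fell 2.96-fold (adjusted p = 0.000644), from between 328 and 1301 CPM to between 177 and 397 CPM. Dlk1, a preadipocyte marker, stayed under 1 CPM on both days (adjusted p = 0.807).

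Of 27 tested Wnt genes 5 rose and 5 fell (1 fell without the replicate block), shares close to the 17.3% and 18.3% of all genes. Nkd1, a feedback inhibitor that Wnt signalling induces, had a lowest, median and highest level of 0.534, 3.29 and 6.57 CPM at day 0, and 48.01, 12, 15.3, 5.54 and 9.89 CPM at day 2, and rose 4.63-fold (95% interval 3.16 to 6.78, adjusted p = 1.23e-07) in all 5 experiments. Axin2, another such inhibitor, rose 6.81-fold (adjusted p = 0.000153; 4.28-fold without experiment 5), to 0.431 to 4.93 CPM. Lrp5, a Wnt co-receptor, rose 2.03-fold (adjusted p = 2.41e-06), and Wnt11, a ligand, fell 3.74-fold (adjusted p = 0.00824) at low level, a call lost without experiment 5. In TGF-beta and BMP signalling 7 of 26 fell and 4 rose (1 lower without the replicate block). Smad7, the inhibitory SMAD, fell 2.13-fold (adjusted p = 7.84e-05), and Inhbb, an activin subunit, 3.31-fold (adjusted p = 0.00107; not called without the block).

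Markers of macrophages, endothelium, epithelium and skeletal muscle were low and gave few calls. Of the 8 markers in each of these lists 4 were tested. Summed over all 8, macrophage genes gave 10 to 17.2 CPM at day 0 and 6.98 to 9.93 CPM at day 2, endothelial genes 8.23 to 30.1 and then 14.9 to 42.1 CPM, epithelial genes 2.05 to 14 and then 1.08 to 10.5 CPM, and skeletal muscle genes 1.95 to 25.2 and then 2.73 to 28.5 CPM. In each of the first 3 lists 1 member fell: Cd68 (2.18-fold, adjusted p = 0.000144), Kdr (5.95-fold, adjusted p = 5.69e-05) and Cldn4 (adjusted p = 0.000181). Cartilage and bone markers were higher: all 9 summed to 182 to 608 CPM at day 0 and 148 to 328 CPM at day 2. Of these 5 were tested, 1 rose and 0 fell (median log2 change -0.183). Alpl, an alkaline phosphatase, was the 1 that rose, from at most 1.02 CPM to 1.06 to 9.23 CPM (adjusted p = 1.59e-05). Bglap had no count. The mesenchymal defining markers summed to 11000 to 13500 CPM at day 0 and 9820 to 16300 CPM at day 2, and 1 of 9 rose (none without the replicate block).

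How far these changes were particular to PY cells was tested against the same change in P and in EV cells, each with its own day 0 libraries. From day 0 to day 2, 4866 genes were called in P cells (28.6%, with 13.9% higher and 14.7% lower) and 3746 in EV cells (22%, with 10.2% higher and 11.8% lower). In the test of the difference between the changes of PY and P cells, edgeR called 0 of 17015 genes (0%), DESeq2 also called 0, and 268 genes (1.58%) had an unadjusted p under 0.05. A missed threshold does not show that the changes were alike. For Fabp4 the ratio of the PY change to the P change was 1.06 (95% interval 0.23 to 4.85) and for Acsl1 1.31 (0.544 to 3.14). For Ifit2 it was 0.447 (0.22 to 0.908) and for Mki67 1.01 (0.672 to 1.52). These intervals are not adjusted for the number of genes tested, and the Ifit2 difference was not called.

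Against EV cells 51 genes differed in their change (0.3%), 47 with a higher (0.276%) and 4 with a lower change (0.0235%) in PY cells. The count moved with the samples and the method: it was 20 without the replicate block, 253 with DESeq2, 251 in a fit of the PY and EV libraries of both days alone, 98 without experiment 3, and 5 to 15 without experiment 1, 2, 5 or 6. With a block for each experiment and day together, chosen after seeing the data, 955 genes differed, 554 higher and 401 lower, so the split of 47 to 4 did not hold there. Acsl1 was among the 10 genes with the lowest adjusted p. Its level went from 40.1 to 52.6 CPM in EV day 0 libraries to 59.6 to 76.7 CPM at day 2, while PY cells went from 44.0 to 81.9 CPM to 479 to 3156 CPM. The log2 change was 4.77 in PY, 4.38 in P and 0.48 in EV cells, and the difference from EV was 4.29 (SE 0.665, adjusted p = 0.000756).

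Lipe differed by 3.94 on the log2 scale (SE 0.675, adjusted p = 0.00382), Gpd1 by 5.69 (SE 0.994, adjusted p = 0.00419; 6.38 in the PY and EV libraries alone) and Agpat2 by 3.34 (SE 0.626, adjusted p = 0.00626). Sort1, a sorting receptor that goes with GLUT4 vesicles, differed by 4.22 (SE 0.756, adjusted p = 0.00449), and Adipor2, an adiponectin receptor, by 2.70 (SE 0.497, adjusted p = 0.00568). Fam213a, a redox protein, differed by 4.93 (adjusted p = 0.00449) and Acaa1b by 3.72 (adjusted p = 0.00626). The differences of Acsl1, Lipe and Gpd1 were called in every alternative tried, whereas each of the others was lost without experiment 5 or 6 (Agpat2 also without experiment 1 or 2). Also among the 10 lowest were Gm9899, a non-coding transcript with no count in PY day 0 libraries, and B430219N15Rik, an antisense transcript whose strand assignment is uncertain.

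The 4 genes with a lower change in PY than in EV cells were Jmjd1c, Ifit1bl1, Slc25a45, a mitochondrial carrier, and Spred3, a regulator of the MAP kinase pathway. Jmjd1c lay at 179 to 205 CPM in EV day 0 libraries and 140 to 175 CPM at day 2. Its difference in change was -0.86 on the log2 scale (SE 0.21, adjusted p = 0.0493), and the call was lost in 17 of the 22 fits that left out 1 library, without any 1 experiment, and without the replicate block. In PY cells it started at 341 to 751 CPM, above every EV library. Ifit1bl1 changed by -5.73, -3.997 and -1.95 on the log2 scale in PY, P and EV cells (difference from EV -3.78, adjusted p = 0.0267). That call too was lost without experiment 1, 2, 5 or 6, and without the replicate block. Slc25a45 and Spred3 differed by -1.47 and -1.33 (adjusted p = 0.0156 and 0.035), calls lost without experiment 1, 5 or 6 and without the replicate block. Without experiment 2 only 1 gene was called with a lower change, so Slc25a45 and Spred3 were not both called there. Without experiment 4 there were 2 such genes, so Ifit1bl1, Slc25a45 and Spred3 were not all called there. Of the 22 fits that left out 1 library, 7 lost Ifit1bl1, 3 lost Slc25a45 and 11 lost Spred3. At day 0 Spred3 was at 5.57 to 14.5 CPM in PY and 4.84 to 5.72 CPM in EV cells. At day 2 it was at 2.42 to 6.58 and 4.06 to 10.1 CPM.

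By list, medians for lipolysis, lipid droplet and fatty acid oxidation genes were higher in PY and P cells than in EV cells. Those for mitosis and DNA replication genes were highest in EV cells. No member of these lists passed the test of difference between PY and P cells. Of the lipid droplet genes 8 rose in PY and 9 in P cells. The median log2 change of lipolysis genes was 2.62 in PY, 2.43 in P and 0.50 in EV cells, and that of triglyceride synthesis 1.32, 1.12 and 0.21, where 3 of 12 and 4 of 20 members passed the test of difference from EV. Mitosis genes had medians of 0.85, 0.96 and 1.25, and 25 of 26 rose in each of the 3 transfections, with 0 members passing that test. Interferon genes had medians of -1.52, -1.22 and -0.96, with 32, 30 and 28 of 34 fallen, and 0 members passed the test of difference. These declines were also measured in cells with the empty plasmid. So were rises of some fat cell genes. The 7 tested mature fat cell markers had medians of 5.33, 5.14 and 2.76 in PY, P and EV cells, with 7, 7 and 2 risen. Fabp4 rose 12-fold (adjusted p = 0.00452) and Adipoq 10.7-fold (adjusted p = 0.0214) in EV cells. Of these markers 2 passed the test of difference from EV. Fabp4, Adipoq, Plin1 and Cidec did not (adjusted p = 0.833, 0.286, 0.628 and 0.755).

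**Figure D5:**
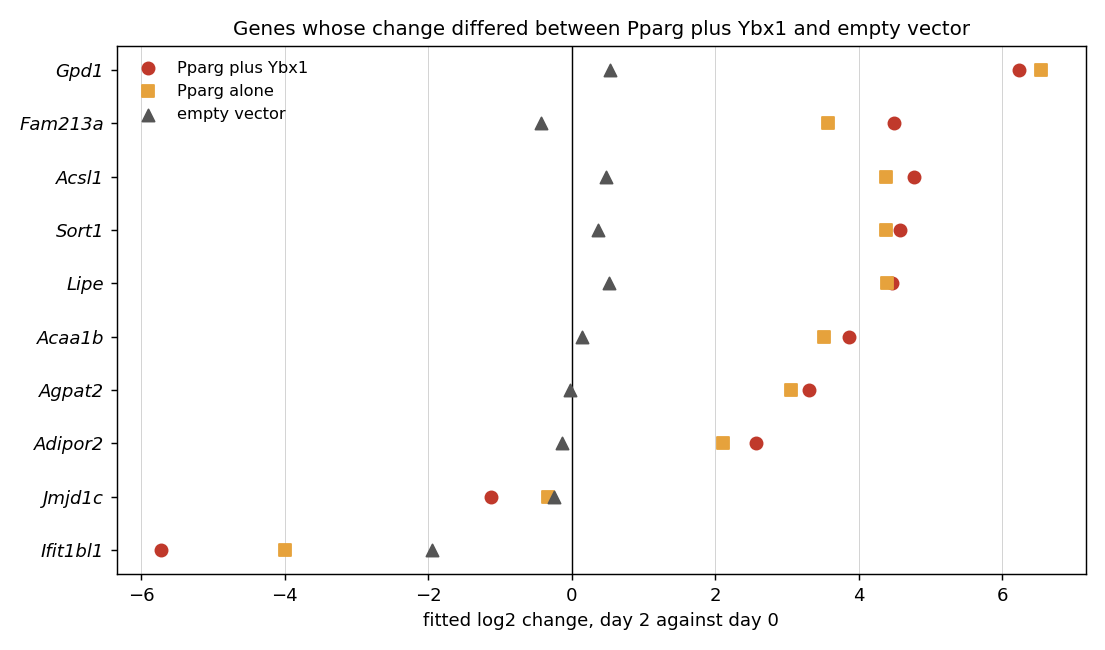
Fitted log2 change from day 0 to day 2 of 10 genes whose change differed between PY and EV cells, in PY (circles), P (squares) and EV cells (triangles); positive values are higher at day 2. For the 8 lipid and related genes at the top the PY and P marks lay from 2.10 to 6.55 and the EV marks from -0.43 to 0.54, while for Jmjd1c the P mark lay beside that of EV.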

How the data were processed

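Gene counts of 51 libraries were used as deposited by the authors. Per the submitters' processing notes, STAR 2.5.3a, featureCounts 1.5.2 and edgeR 3.22.0 were used with mouse build mm10 (GRCm38). Per the labels' protocols, the kit was a stranded one for total RNA and included ribosomal depletion. The annotation release and the strand setting of the counting are not given in the sources used here. Of 53801 gene IDs, 53706 matched GENCODE M21 and 95 did not.

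Counts were tested with edgeR 4.0.16 (R 4.3.3, limma 3.58.1): quasi-likelihood fit over all 51 libraries (9 groups) with group and experiment as terms, TMM scaling, edgeR's filter on low counts (17015 genes kept), and Benjamini-Hochberg adjustment over all of them. The experiment number comes from the labels. Same-experiment PY libraries of day 0 and day 2 deviated together from their group means (median r 0.275, 0.182 to 0.364, 5 pairs), against a median of -0.0852 (-0.335 to 0.263, 25 pairs) for different experiments, a range that overlaps; every same-experiment pair was over 0.1, so experiment was kept as a block. No label says that libraries of a group came from separate cultures beyond that number, so p-values measure the spread between these libraries. No pair of PY libraries matched within sampling noise. Log2 ratios per experiment used a prior count of 2. DESeq2 1.42.0, other scaling, filters and fits without 1 experiment or library were alternatives.

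Named genes were the 10 largest rises and falls (protein-coding, at least 5 CPM in the higher day, same direction in all 5 experiments), up to 4 called members per list and direction by adjusted p, up to 10 genes per test of difference, and a fixed set that includes Fabp4, Adipoq, Cebpa, Pdk4 and Mki67. Axin2, Bglap, Ifit3, Isg15, Top2a, Slc25a45 and Spred3 fall outside that rule, and their choice was made with their values known. Members and lists were chosen with earlier results of these data known. Ddit3 and Aldoa had 2 IDs each and were left out of lists. Reads shared by close copies (Ifit3 and Ifit3b, Acaa1b, Aldh1a7, Ybx1, Gm5431, Ifit1bl1, Ifna4) may be split between them. Promoters came from RefSeq (11241 of 17015 tested genes matched), and motif letters were searched on both strands. The procedure was tested on simulated data.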

Additional observations from a re-analysis of the deposited data

Results flagged for a closer look

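Of 255 sets of 5 or 6 values examined for a library far from the rest, 26 had one. Independent values with a normal spread would give about 1 in 20. The sets came from the same 11 libraries, and CPM need not be spread normally. Of the 26, 14 were day 0 sets and 12 day 2 sets, and 8 concerned experiment 3.

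The day 0 library of experiment 6 stood above the other day 0 libraries for fat genes, with 15.2 CPM of Cebpa, 81.9 CPM of Acsl1, 10.6 CPM of Gpd1, 95.1 CPM of Agpat2, 5.37 CPM of Plin1, 31.8 CPM of Lipe and 0.242 CPM of Hcar1. The day 0 library of experiment 3 stood above the others with 86.8 CPM of Igf1, 4.17 CPM of Ppargc1b, 0.278 CPM of Cidea and 89.9 CPM of Cenpf. The day 0 library of experiment 2 was high for Ccl5 (304 CPM) and Krt16 (30.9 CPM), and that of experiment 4 held 0.0445 CPM of Sptlc3. Over all day 0 libraries Cidea had 13 reads and Sptlc3 2, so the flags of these genes rest on very few reads.

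At day 2, experiment 3 was high for Ccl5 (34.6 CPM), Cxcl10 (32.9 CPM) and Krt16 (1.32 CPM) and low for Dhcr7 (7.01 CPM). Experiment 5 was high for Ppara (4.79 CPM), Uqcrh (366 CPM) and Ccl4 (0.355 CPM). Experiment 1 was high for Ccnb2 (64.9 CPM), Nkd1 (48.0 CPM) and Dlk1 (0.961 CPM). Experiment 2 was low for Hilpda (3.81 CPM) and experiment 6 high for Col1a1 (2590 CPM).

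The change from day 0 to day 2 differed between PY and EV cells for 51 genes by edgeR's test of the difference. On the log2 scale the PY change was higher by 9.59 for Gm9899, 4.29 for Acsl1, 3.94 for Lipe, 5.69 for Gpd1, 4.93 for Fam213a, 4.22 for Sort1, 2.70 for Adipor2, 3.72 for Acaa1b, 3.34 for Agpat2 and 4.20 for B430219N15Rik. The difference was -0.86 for Jmjd1c, -3.78 for Ifit1bl1, -1.47 for Slc25a45 and -1.33 for Spred3. The value for Gm9899 rests on day 0 libraries with no count and is no measure of size.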

How the results depend on the processing

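The count of 6050 genes for day 2 against day 0 was 3875 with no replicate block and 3740 in a fit of only the groups compared, and 4993 to 6209 when 1 library was left out. RLE scaling (6060), no filter (4907), a stricter filter (5880), DESeq2 (6367) and leaving out 1 experiment (4202 to 6392) kept it within 1.5 times. The test of PY against P stayed at 0 in every alternative run. The count of 51 for PY against EV was 20 with no replicate block, 251 with only the groups compared, 198 with no filter, 161 without the shallowest libraries, 253 with DESeq2, and 15, 14, 98, 10 and 5 without experiments 1, 2, 3, 5 and 6. With a block for each experiment and day, added after seeing the data, it was 955 (554 higher and 401 lower), and leaving out 1 library gave 9 to 192. The cause was not tested.

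Ybx1, which was not called, changed sign: its log2 change was -0.0449 with no replicate block, -0.078 without the shallowest libraries, -0.0907 and -0.0609 without experiments 2 and 3, and -0.0766 to 0.12 without 1 library. Angptl4 was -0.0625 without experiment 5, and Dlk1 ranged from -1.42 to 0.0764 without 1 library. None of these was called. The PY libraries of experiment 3 held 4117244 and 3381870 counts, so genes with few reads were measured least well there.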
